A study of Brassica rapa subsp. pekinensis with 2 samples.

Results

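Proton pumps and related enzymes listed under oxidative phosphorylation were compared between flower buds of male sterile and male fertile plants of Chinese cabbage (Brassica rapa subsp. pekinensis). Both kinds of plants belong to AB02, a line with genic male sterility governed by multiple alleles, kept as a population that yields sterile and fertile plants. For both, seeds were sown in a greenhouse following vernalization, per the labels. The groups were sterile buds (1 library) and fertile buds (1 library), with total RNA as the starting material. The sources used here do not give bud stage, plant age or the number of plants behind each library.

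The genes described are the 9 genes that the authors' deposited pathway table places in its row for oxidative phosphorylation, out of 41019 genes measured and 143 genes in that table. The pathway table was drawn from genes that the authors had already listed as different between these libraries. The 9 genes were therefore selected on the same RPKM values (reads scaled to gene length and library total) that are given here. The differences are a description, and with 1 library per group they have no replicate check. The depth behind the RPKM values was 1567647 reads for the sterile library and 1803154 for the fertile library, if gene lengths are multiples of 3 bp. Reads per gene were recovered from the deposited values, and intervals of reads cover counting error only.

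The kinds of proton pump described here use energy from ATP to move protons across a membrane, and the resulting gradient drives uptake of sugars and ions. Plasma membrane pumps of the HA family are single polypeptides that push protons out of the cell and acidify the wall. The vacuolar pump is a rotary complex of many subunits that acidifies the vacuole and vesicles of the secretory route. In Arabidopsis, HA6, HA8 and HA9 are known as pumps of anthers and pollen, and VHA-E2 as the pollen form of its subunit. Pollen tubes keep a strong proton flux across the plasma membrane while they grow.

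By role, 7 of the 9 genes encode parts of proton pumps. The plasma membrane pumps were HA9 (Bra035163 and Bra003576, both AT1G80660), HA8 (Bra008288, AT3G42640) and HA6 (Bra013168, AT2G07560). The vacuolar pump subunits were VATG3 (Bra013935 and Bra019136, both AT4G25950), a G subunit, and VHA-E2 (Bra032402, AT3G08560), an E subunit. The other two were PPa3 (Bra004502, AT2G46860), a soluble pyrophosphatase that splits pyrophosphate and pumps no protons, and Bra014294 (AT1G51650). In Arabidopsis AT1G51650 encodes the epsilon subunit of the mitochondrial ATP synthase, which makes ATP from a proton gradient. That gene was the only one of the 9 from the mitochondrial machinery after which the pathway is named.

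All 9 genes were lower in sterile buds, where 7 of the 9 were at 0. Of all pathway genes in the table, 90.2% were lower. By the authors' deposited table, 2.95% of the 30665 genes above 0 in at least 1 library were listed as lower in sterile buds and 0.346% as higher. Listing was a condition for entering the row, so the count of 9 says nothing further. Of the 906 genes listed as lower, 52.4% were at 0 in sterile buds, as were 48.1% of the 129 pathway genes among them. The 9 genes together held 4 reads in the sterile library and 626 reads in the fertile library. Their summed level was 3.67 RPKM in sterile buds and 466.9 RPKM in fertile buds, which was 0.000293% of the summed RPKM of all genes in the sterile library and 0.0372% in the fertile library.

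**Figure D1:**
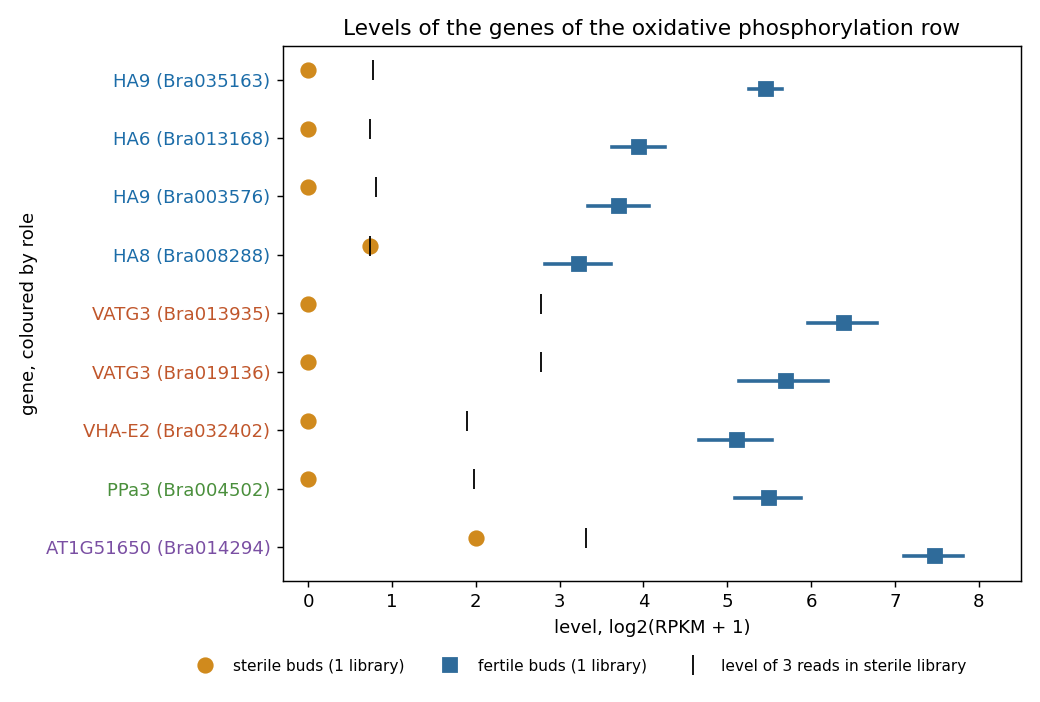
Level of each of the 9 genes on the log2(RPKM + 1) axis, with circles for the sterile library, squares for the fertile library, bars for the 95% counting interval in fertile buds and a tick at the level that 3 reads would give in the sterile library. The sterile circles sit at 0 for 7 genes, and the 3 reads of HA8 and the 1 read of AT1G51650 lie at or below the tick, while the fertile squares span 8.38 to 177 RPKM.

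Among the plasma membrane pumps, the HA9 copy Bra035163 had the highest fertile level, 43.0 of a summed 77.8 RPKM. It stood at 0 RPKM in sterile buds and 43.0 RPKM in fertile buds, from 0 and 211 reads. At an equal share of the library, 183 reads would have fallen in the sterile library. Its level in sterile buds was lower by at least 61.1-fold, set against 3 reads as the floor for a library at 0, and the lower end of the 95% counting interval was 49.3. A level of up to 1.64% of that in fertile buds would be compatible with the bound. The bound takes 3 reads by convention and the fertile reads as counted. The interval end allows for error in both counts and is the more cautious value, here and for the other genes at 0.

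The other HA9 copy, Bra003576, had 0 RPKM in sterile buds and 12.1 RPKM in fertile buds. Its 56 fertile reads gave a fold of at least 16.2 lower in sterile buds, with 12.8 as the lower end of the interval. In fertile buds Bra035163 exceeded Bra003576 by 3.55-fold per length, with a counting interval from 2.63 to 4.85, which excludes equal levels. How reads shared by near-identical copies were assigned is not known here, so the split between copies of HA9, and of VATG3, is uncertain. HA6 stood at 0 RPKM in sterile buds and 14.4 RPKM in fertile buds, from 74 fertile reads. The level in sterile buds was at least 21.4-fold lower (lower interval end 17.0).

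HA8 was the pump with reads in both libraries. It had 0.672 RPKM in sterile buds and 8.38 RPKM in fertile buds, corresponding to a minimum of 3 and 43 reads. HA8 was thus 12.5-fold lower in sterile buds, with an interval from 3.99 to 62.8. HA8 also had the lowest fertile level of the 9 genes, and the 4 pump genes together had 3 reads in the sterile library and 384 in the fertile library.

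The vacuolar pump subunits had no reads in sterile buds, and 122 reads in fertile buds. Bra013935 (VATG3) stood at 0 RPKM in sterile buds and 83.1 RPKM in fertile buds, from 49 fertile reads. The second VATG3 copy, Bra019136, stood at 0 RPKM in sterile buds and 50.9 RPKM in fertile buds, from 30 fertile reads. G subunits form part of the peripheral stalks that hold the rotary complex together. Bra013935 was lower in sterile buds by at least 14.2-fold (lower interval end 11.1), and Bra019136 by at least 8.69-fold (6.64). In fertile buds the ratio of the copies was 1.63, with an interval from 1.02 to 2.67 that only just excludes equal levels.

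VHA-E2, the E subunit that pairs with G in the same stalks, stood at 0 RPKM in sterile buds and 33.7 RPKM in fertile buds. With 43 fertile reads its fold was at least 12.5 (lower interval end 9.71). The summed fertile level of the VATG3 copies was 134 RPKM, 3.98-fold that of VHA-E2 (interval 2.71 to 5.91). Further copies of these subunits outside the authors' tables were not analysed here. The 3 vacuolar genes also stood in the row for phagosome, among 4 genes there, and the authors counted 3 of 66 Arabidopsis genes for it (in the authors' deposited table the corrected p-value was 1).

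PPa3 stood at 0 RPKM in sterile buds and 44.3 RPKM in fertile buds, from 52 fertile reads. Its fold was at least 15.1 (lower interval end 11.8). The ATP synthase gene Bra014294 had the highest level of the 9, at 2.99 RPKM in sterile buds and 177 RPKM in fertile buds. This corresponded to a minimum of 1 and 68 reads and a ratio of 59.1, with an interval from 10.3 to 2369. The sterile level rested on 1 read, which was worth 2.99 RPKM at the implied coding length of 213 bp.

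**Figure D2:**
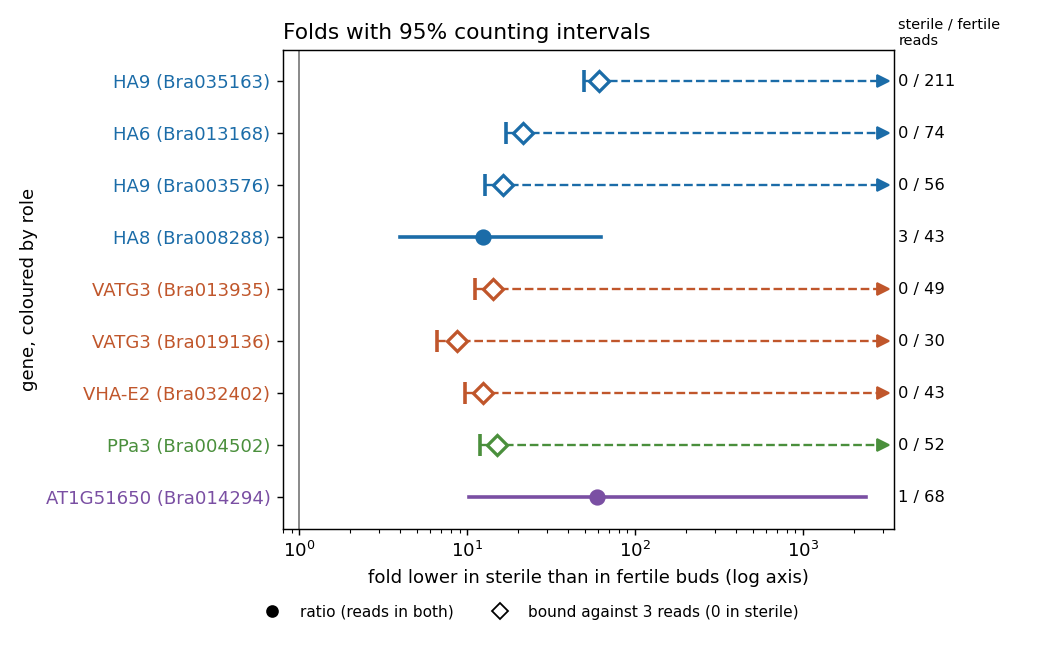
Fold by which each gene was lower in sterile than in fertile buds, on a log axis, with filled circles for ratios and solid bars for their 95% counting intervals, and open diamonds for bounds against 3 reads with a tick at the lower interval end and an arrow for the open upper end. All lower ends lie above 1, from 3.99 for HA8 to 49.3 for the HA9 copy Bra035163, and the reads at the right are given as sterile / fertile.

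Gene length governed how far down a level could be followed in the sterile library. The implied coding lengths of the plasma membrane pumps were 2565 to 2850 bp, and 3 reads in the sterile library were worth 0.671 RPKM for HA6. Both VATG3 copies had an implied length of 327 bp, where 3 reads were worth 5.85 RPKM. The HA9 copy Bra035163 and PPa3 had similar fertile levels (43.0 and 44.3 RPKM), with a ratio of PPa3 over HA9 of 1.03 and an interval from 0.746 to 1.40. At lengths of 2724 and 651 bp they gave bounds of 61.1 and 15.1. The bounds thus follow the number of fertile reads and do not rank the genes by how much they fell.

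In fertile buds the order of levels per length was AT1G51650, the VATG3 copies Bra013935 and Bra019136, PPa3, the HA9 copy Bra035163, VHA-E2, HA6, the HA9 copy Bra003576 and HA8. The first stood 2.13-fold above the second (interval 1.45 to 3.14). Bra019136, PPa3, Bra035163 and VHA-E2 followed each other without a step beyond counting error. The next step was from VHA-E2 to HA6, a ratio of 2.34 (interval 1.57 to 3.45). HA6 over Bra003576 (ratio 1.19, interval 0.829 to 1.71) and Bra003576 over HA8 (ratio 1.45, interval 0.954 to 2.20) were not separated at this depth. HA6, Bra003576 and HA8 were thus the lower end of the order. Bra035163, also a plasma membrane pump, stood among the stalk subunits and enzymes, so the order did not separate the roles. Against all 41019 genes, AT1G51650 was above 97.0% of genes in fertile buds and HA8 above 63.8%. These shares include genes at 0, since 70.9% of all genes were above 0 in the fertile library.

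On the log2(RPKM + 1) scale, sterile minus fertile, the 9 differences ranged from -6.39 for Bra013935 to -2.49 for HA8. Their median was -5.46, against 0.17 over the 27940 genes with at least 1 RPKM in at least 1 library. A gene was counted as lower when this difference was -1 or less, which 9 of 9 genes and 14.5% of all genes kept met, with 11.5% higher by as much. Of the genes passing in either direction 55.6% were lower, and 65.8% after a median-ratio scaling of the sterile library. For a gene at 0 in sterile buds this difference restates its fertile level. As log2 ratios, with each of the 7 genes at 0 taken at its bound, the 9 had a median of -3.91. That value is on another measure than the medians that follow. Back on the log2(RPKM + 1) scale, where the 9 had -5.46, the 906 genes listed as lower had a median difference of -4.84. The 129 pathway genes among them, which were chosen the same way, had -4.39. Median fertile levels were 43.0 RPKM for the 9, 58.3 for the 906 and 45.7 for the 129. At 0 in sterile buds were 7 of the 9, 52.4% of the 906 and 48.1% of the 129. These medians therefore do not rank the sets by how much they fell. Of the 13585 genes within the range of fertile RPKM of the 9, 4.49% were at 0 in sterile buds and 12.4% were lower by the size rule.

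**Figure D3:**
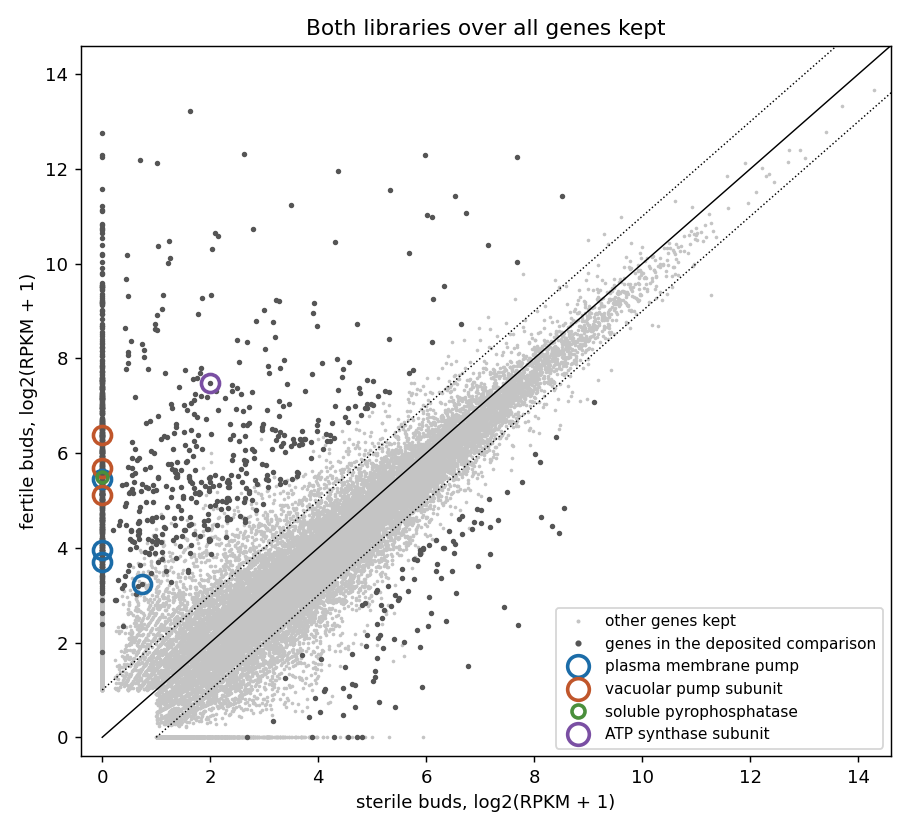
Level of each gene kept in sterile (horizontal) and fertile (vertical) buds, both as log2(RPKM + 1), with the 9 genes as coloured rings, the solid line at equality and dotted lines at a difference of 1. Rings sit on the left edge for the 7 genes at 0 in sterile buds, among many dark points of the deposited comparison, and the HA9 copy Bra035163 and PPa3 nearly coincide.

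The authors' deposited table gave log2 fold changes, fertile over sterile, of 7.99 for the HA9 copy Bra035163, 6.48 for HA6, 6.08 for Bra003576 and 3.88 for HA8. There the values were 5.88 and 5.18 for the VATG3 copies Bra013935 and Bra019136, 5.70 for VHA-E2, 5.97 for PPa3 and 6.12 for AT1G51650. For HA8 and AT1G51650 these include a further scaling of 0.24 on the log2 scale in the authors' deposited table. For the 7 genes at 0, the fertile reads were recovered from the fold there, so fold and reads are proportional by construction. The smallest q-value of the 9 in the authors' deposited table was 5.36e-25, for Bra035163. The gene nearest the limit of that table was Bra019136, with a q-value of 0.000379 where the highest listed was 0.000999. Among genes at 0 in sterile buds, those listed had at least 27 fertile reads, and Bra019136 had 30. By log2 fold, Bra035163 ranked at place 136 and HA8 at place 744 of the 906 genes listed as lower. This rank mixes ratios with the folds of genes at 0, which were 52.4% of the 906. Those folds follow the fertile reads, so the places do not rank the genes by how much they fell.

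Most Arabidopsis genes of the pathway had no listed counterpart. The authors' deposited table counted 7 of 163 Arabidopsis genes for oxidative phosphorylation, or 4.29%. Its p-value was 0.310 and, after the authors' correction, 1. The median share over its 76 pathways was 4.42%, and the row ranked at place 26 by p-value. The levels of the counterparts of the other 156 Arabidopsis genes were not analysed here, since genes outside the tables carried no name. Against lists of Arabidopsis codes, 3 of 11 plasma membrane proton pumps, 2 of 28 vacuolar pump subunits and 1 of 9 pyrophosphatases were paired with a listed gene. Each of the 8 genes so paired was lower in sterile buds and belonged to the 9. Codes came only from the authors' deposited tables, among them the pathway table that defines the 9. This overlap is therefore no separate result. From the list of cation and proton exchangers and channels of pollen, 0 genes were paired, and outside the 9 genes no respiratory chain gene was. Of the 1012 listed genes, however, 787 carried no Arabidopsis code and could not be paired. The counts from these lists therefore cannot tell whether further such genes were among those listed. Codes paired with more than 1 listed gene numbered 2 of the 7 codes here, and 23 of the 115 codes (20%) in the whole pathway table.

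Marker genes could be paired only where the authors had listed them, and 906 of the 1012 listed genes were lower in sterile buds. The direction of the markers below is therefore no separate support. Of 6 pollen marker codes, 2 were paired with genes, the copies of PPME1 and AT59, which are pectin enzymes. Their 4 genes were lower in sterile buds, with 3 at 0, and their summed level was 0.463 RPKM in sterile buds and 652 RPKM in fertile buds. Of 7 codes for the tapetum and pollen wall, 1 was paired, CYP98A8, an enzyme of pollen coat phenolamides, at 50.3 RPKM in sterile buds and 1200 RPKM in fertile buds. The marker genes were also known by name from the listed genes alone, and their part in the values of the 9 genes was not tested. In whole buds, fewer cells of a type and less RNA per cell cannot be told apart. Codes for floral organ identity (5), pistil and ovule (3) and leaf (2) were paired with 0 genes, so the labelled tissue was not checked against them.

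The named genes most like the 9 were sought among the other 216 genes with an Arabidopsis code, by distance to the median of the 9 in the plane of log2(RPKM + 1) in the 2 libraries. The closest was Bra021011 (AT4G18395), at 0 RPKM in sterile buds and 44.2 RPKM in fertile buds, at a distance of 0.039. The others were Bra001119 (AT3G04700), Bra010673 (AT4G39610), Bra013040 (UBC23, a ubiquitin-conjugating enzyme) and Bra012382 (AT2G27670). They stood at 0 RPKM in sterile buds and 39.6 to 45.1 RPKM in fertile buds. With 2 libraries, this measure finds genes of the same level and carries nothing on shared function.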

How the data were processed

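The authors deposited RPKM per gene for both libraries, and, per the file headers, log2 fold changes of fertile over sterile with a p-value and a q-value per gene. The deposited pathway table gave counts of Arabidopsis genes with p-values. TopHat is named in the submitters' processing notes; the sources used here do not give the build, annotation, counter or tests. The 10338 ribosomal RNA features were left out.

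Reads were recovered from the RPKM values and, for listed genes at 0 in 1 library, from the authors' fold changes. For the 481 listed genes at 0 in 1 library, the authors' fold change was a multiple of the reads (within 9.19e-11 of whole numbers, tolerance 0.0001). With lengths in steps of 3 bp, the totals were 1567647 reads in the sterile and 1803154 in the fertile library. With 1 bp steps they would be 4702941 and 5409462, with lengths shorter to match. For HA8 and AT1G51650 the smallest whole reads were used, a minimum. The next multiple would imply lengths of 5694 and 426 bp.

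Intervals are 95% exact (Clopper-Pearson for ratios, Poisson for levels) and cover counting error only, since reads are not independent molecules. With 1 library per group no test was run. Named genes outside the row share a member's or list's code, are the 5 nearest in level, or lie within 5 identifier numbers and are listed. Genes and lists were chosen with earlier results of these data known. Python 3.11.15, pandas 2.3.3 and scipy 1.17.1 were used, and scripts were tested on simulated data. Alternatives were pseudocounts of 0.1 and 5, 2 scalings, 2 filters and the length step. Nucleotide and protein sequences of these genes were not used here.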

Additional observations from a re-analysis of the deposited data

How the results depend on the processing

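The count of 9 genes lower in sterile buds, and of 9 whose interval lay above 2-fold, held under every alternative run for it. These alternatives could hardly have changed either count. For the 7 genes at 0 in sterile buds, no pseudocount or scaling can alter the direction. The interval count was rerun only with the 1 bp length step, which leaves the reads and the ratio of the library totals unchanged. The median difference of the 9 was -8.40 with a pseudocount of 0.1 and -3.26 with a pseudocount of 5, since genes at 0 take their size from the pseudocount. Single differences ranged from -9.70 to -3.46 and from -4.51 to -1.24 under these. Rescaling the sterile library shifted its log2 values by -0.20 (median ratio) or -0.23 (trimmed mean) and left genes at 0 where they were. Over all genes, 1935 lower and 987 higher passed with a pseudocount of 5 (66.2% lower), and 2426 and 2011 with a filter of at least 5 RPKM, against 4042 and 3224. Against 55.6% lower as reported, scaling by the median ratio gave 65.8% and by the trimmed mean 67.3%. No paired analysis was possible because each group had 1 library. Depth limits the short genes most, where 3 reads in the sterile library equal 5.85 RPKM for VATG3.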

Other observations

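Genes with neighbouring identifier numbers did not share the pattern as a group. Within 5 numbers of the 9 genes lay 90 genes, of which 63 reached at least 1 RPKM in at least 1 library. By the size rule, 4 of the 63 were lower in sterile buds and 6 were higher. Over all genes kept, 14.5% were lower and 11.5% higher. The authors' deposited table listed 3 of the 90 genes. Of all genes above 0 in at least 1 library, it listed 2.95% as lower and 0.346% as higher. Bra013932, near the VATG3 copy Bra013935, had 0 RPKM in sterile buds and 21.6 RPKM in fertile buds. Bra004500, near PPa3, had 0 RPKM in sterile buds and 15.0 RPKM in fertile buds. Bra014297, near the ATP synthase gene Bra014294, went the other way, with 60.3 RPKM in sterile buds and 14.7 RPKM in fertile buds. None of the 3 carried a name, and identifier numbers were not checked against genome positions.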
